A study of Mus musculus with 12 samples.

Results

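The guanylate binding proteins (GBPs) are a family of large GTPases, and their mRNAs were followed here in Myc-CaP cells treated with oxaliplatin (Oxali), interferon γ (IFNγ) or both. The members were the 10 genes whose rows in the deposited count table carry the symbols Gbp2, Gbp2b, Gbp3, Gbp4, Gbp5, Gbp6, Gbp7, Gbp8, Gbp9 and Gbp10, out of 55216 genes in the table. Myc-CaP is an established mouse prostate cancer line on the FVB/NJ background, derived from a mouse in which a probasin promoter drives a MYC transgene, so every group overexpresses Myc and comes from 1 line. Cells were harvested after 48 h. The 12 libraries form 6 groups of 2: untreated (Ctrl), IFNγ at 200 pg (IFN200), IFNγ at 2000 pg (IFN2000), Oxali at 2 μM (Oxali), and Oxali at 2 μM with IFNγ at 200 pg (Combo200) or 2000 pg (Combo2000). The labels give the IFNγ dose without a volume. Nothing in them says whether the 2 libraries of a group came from separate cultures, so the p-values measure only the spread between these libraries, which may be technical.

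GBPs are among the genes that IFNγ induces most strongly in many cell types: the bound receptor signals through JAK kinases, and IRF factors induced downstream act at GBP promoters. The proteins assemble on the membranes of pathogen-containing vacuoles and on bacteria, together with a second IFNγ-induced family, the immunity-related GTPases, and they promote inflammasome activation in macrophages. In tumors GBP mRNAs are commonly read as a marker of IFNγ exposure.

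Both labels of a library were compared before use. For the 6 libraries with a single treatment the title and the agent label disagree: the titles IFN200, IFN2000 and Oxali go with the agents Oxali, IFNγ 200 pg and IFNγ 2000 pg, respectively. Groups follow the titles. With the titles, Oxali against Ctrl changed 67.6% of the 13177 genes tested, IFN200 against Ctrl changed 0.114% and Combo200 against Oxali changed 1.83% (edgeR quasi-likelihood test, Benjamini-Hochberg adjusted p under 0.05, which is what "called" means below). Ifngr2, a subunit of the IFNγ receptor that was picked here after its values were seen, stood at 4.88 and 4.43 CPM in the libraries titled Oxali and at 4.44 to 5.55 CPM in the 4 combination libraries, against 0.751 to 1.33 CPM in the 6 titled Ctrl, IFN200 or IFN2000. Total counts ran from 18749975 to 25931516 per library. A count of 3, taken as the detection floor, corresponds to between 0.111 and 0.167 CPM, the count relative to the TMM-scaled library size. Of 8 prostate luminal markers, 5 or 6 were detected in each library. Epcam was listed at 0 in all 12 libraries.

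Some libraries stood apart. IFN2000 replicate 2 held 117 counts of Ifng, the gene for the cytokine itself, against 0 in IFN2000 replicate 3, and it had the T cell markers Cd3d (13 counts), Cd3g (10 counts) and Cd3e (4 counts), each at 0 in replicate 3. Ifng had 9 counts in Combo200 replicate 3 and at most 1 in the other 10 libraries. The 8 T cell markers summed to 6.03 CPM with 7 detected in IFN2000 replicate 2, against 0.353 to 2.44 CPM in the other 11 libraries. IFN200 replicate 1 had all 8 cardiac muscle markers, with a sum of 8.33 CPM against 1.10 CPM in IFN200 replicate 2, although the libraries with Oxali also reached 3.06 to 5.94 CPM, most of it Tnnt2, and Combo200 replicate 2 had 7 of the 8 detected. The part of these transcripts in the GBP values was not tested. Where leaving out IFN200 replicate 1 or IFN2000 replicate 2 changed which members were called in a comparison that uses the library, the change is given there.

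The 10 genes lie in 2 clusters (GRCm38, GENCODE M21 positions). On chromosome 3, plus strand, the order is Gbp5, Gbp7, Gbp3, Gbp2b, Gbp2 within chr3:142493978-142638008. On chromosome 5, minus strand, it is Gbp8, Gbp9, Gbp4, Gbp10, Gbp6 within chr5:105014150-105293698. Shared sequence limits the second cluster. Of all 100-base stretches of the Gbp10 and Gbp6 exons, 73.5% and 64.5% also occur in other genes, chiefly in each other and in the read-through model Gm43302, so the split of reads between Gbp10 and Gbp6 is uncertain. The same share is 10.0% for Gbp7, 4.39% for Gbp8 and under 2% for the other 6 members. Shorter stretches are shared more. For 50 bases the share is 84.1% for Gbp10, 70.65% for Gbp6, 18.1% for Gbp8 and 12.7% for Gbp7. It is 8.05% for Gbp9, 7.78% for Gbp4 and at most 3.75% for the rest. The exons of Gbp8, Gbp9 and Gbp4 overlap on the same strand by 60 or 61 bases.

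RefSeq (GRCm38.p6) gave promoter windows for 5 of the 10 members, all in the chromosome 3 cluster. They are shown because the factors downstream of IFNγ are known to act at GBP promoters. Capitals mark matches, searched on both strands, to 3 motifs. These are the interferon-stimulated response element (ISRE) core, here 2 GAAA units with 2 bases of any kind between them, the gamma-activated site (GAS) core TTCNNNGAA, and an NF-κB core, here GGG and TTTCC with 2 bases of any kind between them. All windows run 5′ to 3′ on the plus strand, over chr3:142496684-142496983 for Gbp5, chr3:142530086-142530385 for Gbp7, chr3:142559794-142560093 for Gbp3, chr3:142594597-142594896 for Gbp2b and chr3:142620413-142620712 for Gbp2.
Gbp5: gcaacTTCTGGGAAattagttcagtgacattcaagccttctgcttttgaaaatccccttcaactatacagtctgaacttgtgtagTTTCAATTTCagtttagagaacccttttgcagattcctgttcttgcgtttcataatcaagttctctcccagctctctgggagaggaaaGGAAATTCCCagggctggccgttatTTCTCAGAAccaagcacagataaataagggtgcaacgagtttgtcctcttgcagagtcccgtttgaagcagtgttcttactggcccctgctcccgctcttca
Gbp7: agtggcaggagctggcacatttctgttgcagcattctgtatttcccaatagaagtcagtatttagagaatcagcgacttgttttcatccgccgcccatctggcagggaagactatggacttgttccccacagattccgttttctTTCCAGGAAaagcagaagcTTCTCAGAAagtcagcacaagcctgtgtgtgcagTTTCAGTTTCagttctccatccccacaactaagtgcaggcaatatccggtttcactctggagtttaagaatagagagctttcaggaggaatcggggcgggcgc
Gbp3: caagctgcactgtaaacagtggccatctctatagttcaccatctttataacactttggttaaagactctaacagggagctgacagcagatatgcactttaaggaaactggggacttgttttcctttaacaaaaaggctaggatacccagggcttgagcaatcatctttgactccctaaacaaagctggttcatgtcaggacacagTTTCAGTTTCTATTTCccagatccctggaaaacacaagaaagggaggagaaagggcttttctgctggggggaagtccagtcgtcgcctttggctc
Gbp2b: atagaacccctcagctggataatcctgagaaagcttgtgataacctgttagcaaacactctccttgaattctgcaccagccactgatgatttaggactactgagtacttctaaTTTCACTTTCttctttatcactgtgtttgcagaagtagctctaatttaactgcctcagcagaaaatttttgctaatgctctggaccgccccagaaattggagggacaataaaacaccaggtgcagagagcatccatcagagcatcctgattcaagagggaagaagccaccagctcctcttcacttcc
Gbp2: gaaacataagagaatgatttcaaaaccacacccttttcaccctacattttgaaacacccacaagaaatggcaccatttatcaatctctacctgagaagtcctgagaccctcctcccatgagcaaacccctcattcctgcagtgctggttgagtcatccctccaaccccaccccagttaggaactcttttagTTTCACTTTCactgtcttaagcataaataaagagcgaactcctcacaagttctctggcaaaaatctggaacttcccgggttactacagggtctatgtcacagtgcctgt

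An ISRE core was present in each of these 5 windows, on the reverse strand, so that the units read TTTC as printed. Among all 32851 RefSeq windows of that length 3.44% hold one. It began 165 bases before the start of Gbp5, 53 before Gbp7, 45 and 39 before Gbp3 (2 overlapping matches that run together in capitals), 137 before Gbp2b and 59 before Gbp2. A GAS core was present for Gbp5 (245 and 52 bases before the start) and Gbp7 (106 and 87 bases before), against 8.30% of all windows. The NF-κB core was present only for Gbp5 among these windows, 77 bases before the start, against 1.63% of all windows. Gbp3 has a second RefSeq window, over an alternative start, which held none of the 3 motifs. These are letter matches and not measured binding sites.

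Gbp2, which coats the vacuoles of intracellular parasites, was the most abundant member per length of transcript in every group. Without Oxali its pairs of libraries stood at 1.00 and 0.912 CPM without IFNγ, at 3.30 and 2.25 CPM with 200 pg and at 30.6 and 30.7 CPM with 2000 pg. With Oxali the pairs stood at 3.36 and 2.86, 57.3 and 63.2, and 286 and 293 CPM for the same steps of IFNγ. No library of IFN2000, Combo200 or Combo2000 overlapped a library of another group, whereas IFN200 and Oxali overlapped each other. Gbp2 in Combo2000 was 301-fold above Ctrl (log2 difference 8.23 ± 0.10, SE). Here and below, SE is the log2 difference divided by the root of the F statistic of the test. It understates the counting error of large changes from groups with few counts.

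Gbp3, which belongs to the same cluster and is needed with its neighbors for inflammasome responses to cytosolic bacteria, had the same overall course. Over the 3 steps of IFNγ its pairs read 0.278 and 0.405, 1.26 and 1.06, and 11.5 and 10.8 CPM without Oxali. They read 2.39 and 2.58, 45.6 and 46.2, and 168 and 169.8 CPM with Oxali. All 6 groups were separated, with Oxali above IFN200. Gbp3 was the member with the largest fitted rise over Ctrl among those above the floor in Ctrl, at 482-fold in Combo2000 (log2 difference 8.91 ± 0.10, SE). That SE is too small, since Gbp3 had 13 counts over the Ctrl pair. With the same Ctrl libraries the SE for Oxali against Ctrl was 0.27.

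Gbp7, another vacuole-associated GBP, was the third of the members readily detected in untreated cells. Its pairs read 0.334 and 0.861, 1.91 and 1.99, and 8.69 and 8.43 CPM over the steps of IFNγ without the drug. With the drug they read 3.27 and 2.81, 30.0 and 28.7, and 76.1 and 75.0 CPM. Its range over the 6 groups was narrower than that of Gbp2 and Gbp3: Combo2000 was 123-fold above Ctrl (log2 difference 6.94 ± 0.13, SE).

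Gbp5, which promotes assembly of the NLRP3 inflammasome in macrophages, was listed at 0 in both Ctrl libraries. It had a single count over the IFN200 pair and stood at 0.685 and 0.625 CPM in IFN2000. With Oxali its pairs read 0.0921 and 0.286, 6.06 and 5.87, and 51.5 and 46.0 CPM at 0, 200 and 2000 pg. Taken against a floor of 3 counts over the Ctrl group, Gbp5 was at least 616-fold higher in Combo2000, at least 75.0-fold higher in Combo200, at least 8.24-fold higher in IFN2000 and at least 2.36-fold higher in Oxali. The Oxali value of Gbp5 rests on 2 and 6 counts.

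Gbp2b, the neighbor of Gbp2 that was formerly called Gbp1, was near the floor outside 3 groups. Its counts were 2 and 0 for Ctrl, 0 and 1 for IFN200 and 1 and 1 for Oxali, against 8 and 18 for IFN2000, 23 and 28 for Combo200 and 161 and 132 for Combo2000. In CPM the last 3 groups read 0.342 and 0.803, 1.00 and 1.08, and 5.96 and 5.69. The IFN2000 pair of Gbp2b differed more than the pairs of the more abundant members did.

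The chromosome 5 members were low throughout and were highest in Combo2000. Gbp4 had 0 and 1, 0 and 2, and 10 and 8 counts over the steps of IFNγ without Oxali, and 13 and 9, 57 and 57, and 372 and 315 with it. Gbp9 had 0 and 1, 0 and 1, and 5 and 4 counts without Oxali, and 9 and 8, 35 and 40, and 270 and 257 with it. For these genes, and for no other detected member, the Oxali pair held more counts than the IFN2000 pair.

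Gbp10 had 1 and 0, 0 and 0, and 10 and 2 counts without Oxali, and 0 and 1, 43 and 54, and 237 and 198 with it. The higher of its IFN2000 libraries is replicate 2, the one with T cell markers. Gbp2b went the other way, with 8 counts in replicate 2 and 18 in replicate 3, and Gbp2, Gbp3 and Gbp7 were close in both. Gbp6 was listed at 0 in all 8 libraries without the combination, at 4 and 9 counts in Combo200 and at 34 and 30 in Combo2000. Gbp8 had 33 and 28 counts in Combo2000, 0 and 1 in Combo200 and 3 and 0 in IFN2000, the 3 again in replicate 2, and was listed at 0 in the other 6 libraries. For a gene at 0 in a library, a count of 0 allows a level of up to 0.111 to 0.167 CPM (counting error only).

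**Figure D1:**
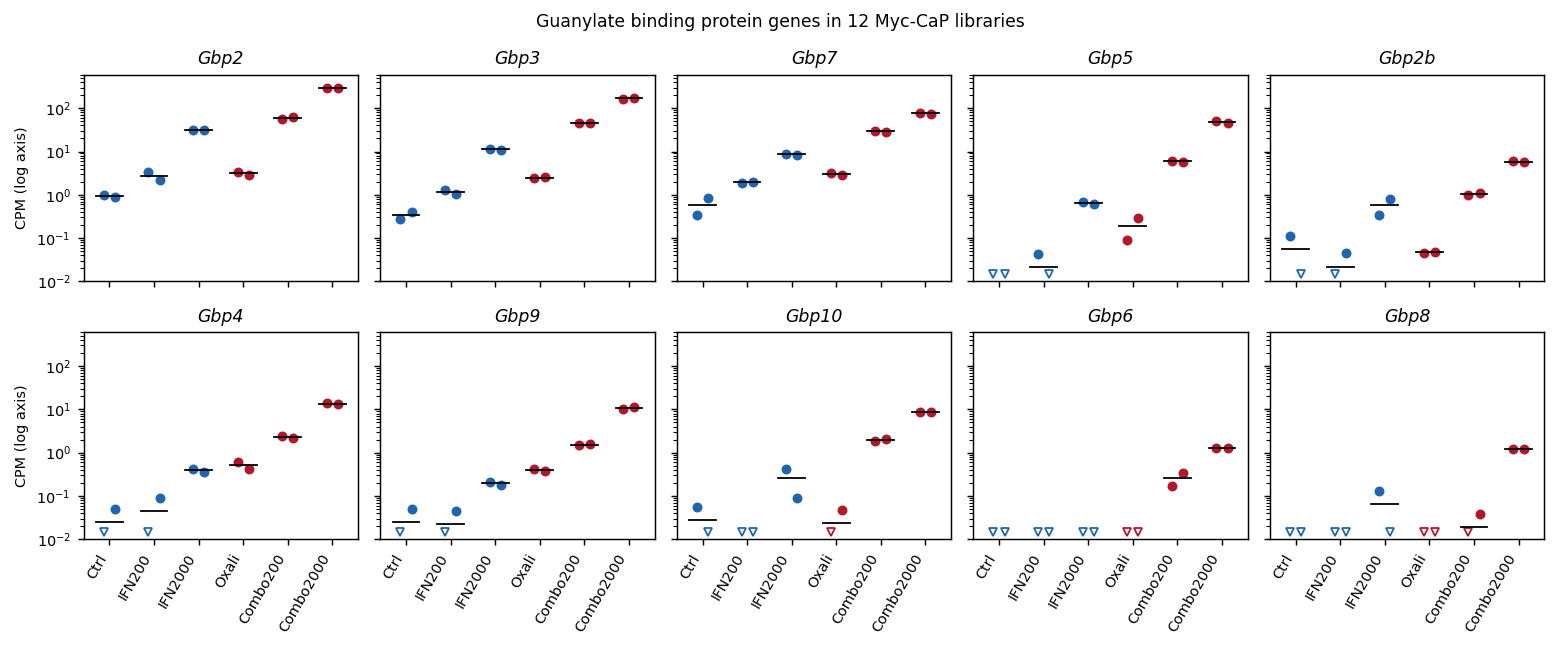
CPM of the 10 GBP genes (log axis) in each of the 12 libraries, blue without and red with Oxali. Filled points are libraries, bars are means of 2, and open triangles at the foot of a panel mark libraries with 0 counts, which a log axis cannot show. Combo2000 was highest in every panel, while the order of Oxali and IFN2000 differed: Gbp2 stood at 3.36 and 2.86 CPM in Oxali against 30.6 and 30.7 in IFN2000, and Gbp9 at 0.414 and 0.381 against 0.214 and 0.178.

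These levels give the order of the groups for each member. For Gbp3 and Gbp7 every neighboring pair was called, from Ctrl through IFN200, Oxali, IFN2000 and Combo200 to Combo2000. For Gbp2 the order was the same except that IFN200 and Oxali were not separated (log2 difference 0.16 ± 0.18, SE, adjusted p = 0.428). For Gbp4 and Gbp9 the difference between IFN2000 and Oxali was not called, although both Oxali libraries lay above both IFN2000 libraries, and Ctrl and IFN200 were at or under the floor. All 10 members passed the filter on low counts, but Gbp6 and Gbp8 did so only through Combo2000, and only 5 (Gbp2, Gbp3, Gbp4, Gbp5 and Gbp7) pass in the 8 libraries without the combination. Counts of called members in the following comparisons therefore describe these 10 genes and are not support for a rise of the family.

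IFNγ alone raised several GBPs, and more of them at the higher dose. At 200 pg, 3 of 10 members were called higher than in Ctrl, against 0.114% of all genes tested: Gbp3 rose 3.33-fold (log2 difference 1.74 ± 0.32, SE, adjusted p = 0.0263), Gbp7 3.18-fold (1.67 ± 0.29, adjusted p = 0.0176) and Gbp2 2.90-fold (1.54 ± 0.25, adjusted p = 0.01). These calls are fragile. None of the 3 was called without IFN200 replicate 1 (log2 differences 1.23 to 1.69) or without Ctrl replicate 1, 1 was called without Ctrl replicate 2, and 2 were called without IFN200 replicate 2. Gbp3 was also not called when any 1 of the 4 combination libraries was left out, or under DESeq2 (adjusted p = 0.0961). The other 7 members had at most 2 counts over the IFN200 pair, so no change was detectable at this depth.

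At 2000 pg, 6 of 10 members were called higher than in Ctrl, against 16.9% of all genes in either direction and 8.39% higher. Gbp2 rose 32.0-fold (log2 difference 5.00 ± 0.14, SE), Gbp3 31.9-fold (5.00 ± 0.18) and Gbp7 13.9-fold (3.80 ± 0.21). The others called were Gbp5 (at least 8.24-fold), Gbp2b (10.7-fold, 95% counting interval 2.68 to 93.1) and Gbp4 (14.8-fold, interval 2.34 to 618). Gbp9 (9 counts against 1, adjusted p = 0.0736) and Gbp10 (12 counts against 1, adjusted p = 0.0654) missed the threshold. Without IFN2000 replicate 2 the count was 5, with Gbp4 no longer called, and the values of Gbp2, Gbp3 and Gbp7 were 5.01, 4.96 and 3.78 on the log2 scale. Gbp4 was also not called without Ctrl replicate 1, nor Gbp2b without Ctrl replicate 2 or IFN2000 replicate 3. Under DESeq2 Gbp4 was tested and not called, and Gbp2b received no adjusted p.

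The step from 200 to 2000 pg without Oxali raised 8 of 10 members (22.3% of all genes were called, 11.3% higher). Gbp2 rose 11.0-fold (log2 difference 3.46 ± 0.11, SE), Gbp3 9.58-fold (3.26 ± 0.13) and Gbp7 4.39-fold (2.13 ± 0.15). Gbp7 had the smallest of these 3 values. Gbp5, Gbp2b, Gbp4, Gbp9 and Gbp10 were called from 30, 26, 18, 9 and 12 counts in IFN2000. The count of called members fell to 5 without IFN200 replicate 1 and to 5 without IFN2000 replicate 2, in both cases through Gbp4, Gbp9 and Gbp10.

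Oxali alone, a platinum drug that crosslinks DNA, also raised GBPs. At 2 μM, 6 of 10 members were called higher than in Ctrl, against 67.6% of all genes in either direction and 34.8% higher, so the drug moved most of the genes tested. Gbp3 rose 7.11-fold (log2 difference 2.83 ± 0.27, SE), Gbp7 4.96-fold (2.31 ± 0.26) and Gbp2 3.25-fold (1.70 ± 0.25). Gbp4 rose 19.4-fold (counting interval 3.14 to 803) and Gbp5 at least 2.36-fold. Gbp9 had 17 counts against 1 (counting interval of the ratio 2.35 to 628). Gbp5 was not called without Ctrl replicate 2 or without Oxali replicate 2. When only Ctrl and Oxali were fitted, Gbp4, Gbp5 and Gbp9 failed the filter and were not tested. Gbp9 passed the filter only through the combination groups. Gbp2b and Gbp10 stayed at or under the floor in both groups, and Gbp6 and Gbp8 were listed at 0. The Ifng gene had 0 counts in both Oxali libraries. In bulk RNA a change in the number of responding cells and a change in RNA per cell cannot be told apart.

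Set side by side against the same Ctrl libraries, Oxali and IFNγ ranked the members differently. Oxali gave lower levels than IFN2000 for 6 of 10 members (71.0% of all genes were called, 33.9% lower): Gbp2 at 0.102 of the IFN2000 level (log2 difference -3.30 ± 0.11, SE), Gbp3 at 0.223 (-2.17 ± 0.11), Gbp5 at 0.292 (-1.78 ± 0.52), Gbp7 at 0.356 (-1.49 ± 0.14), Gbp2b at 0.0825 (counting interval 0.00949 to 0.330) and Gbp10 at 0.0894 (0.00209 to 0.604). Gbp4 (0.39 ± 0.44, adjusted p = 0.446) and Gbp9 (1.00 ± 0.52, adjusted p = 0.104) lay above the IFN2000 level in both Oxali libraries without being called. Without IFN2000 replicate 2, Gbp10 was no longer called and the count was 5. Without Oxali replicate 1, Gbp5 and Gbp10 were not called and the count was 4, and without IFN2000 replicate 3 it was 7. Against IFN200, 5 members were higher in Oxali (68.1% of all genes called, 35.3% higher): Gbp3 2.14-fold (1.09 ± 0.19), Gbp7 1.56-fold (0.64 ± 0.19), Gbp9 18.2-fold (counting interval 2.85 to 761), Gbp4 11.8-fold (2.89 to 103) and Gbp5 8.56-fold (1.15 to 380). The last was lost without IFN200 replicate 2 or without Oxali replicate 2, and Gbp7 without Oxali replicate 1.

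**Figure D2:**
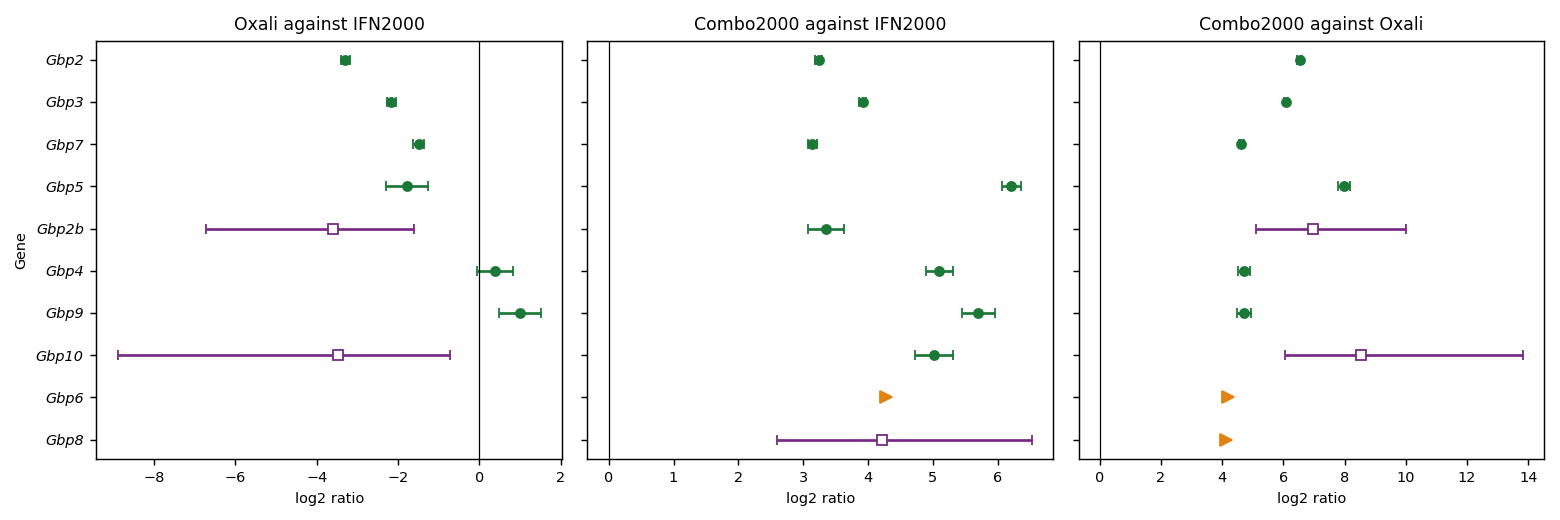
Log2 ratios of the 10 members for Oxali against IFN2000, Combo2000 against IFN2000 and Combo2000 against Oxali, on separate axes. Circles are fitted values ± SE, open squares are count ratios with a 95% counting interval where a group had 1 to 3 counts, and triangles are lower bounds where a group had 0. The SE understates the counting error of large changes from few counts. Of the 8 members shown at left 6 lie below 0, and Gbp4 (0.39) and Gbp9 (1.00) lie above it, whereas every value in the other panels is above 0.

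The largest changes came with both agents. In Combo2000 all 10 members were called higher than in Ctrl, in IFN2000 alone and in Oxali alone. Gbp6 and Gbp8 were tested only because Combo2000 is high, and Gbp2b, Gbp9 and Gbp10 only through the combination groups. A rise of these members in the combinations was therefore partly built into their being tested. The backgrounds were 69.2% of genes against Ctrl (35.7% higher), 72.3% against IFN2000 (38.5% higher) and 4.34% against Oxali (3.35% higher). In Combo200 the numbers were 9 of 10 against Ctrl (68.7%, 35.6% higher), 9 against IFN200 (69.9%, 36.5% higher) and 8 against Oxali (1.83%, 1.58% higher). The exceptions were Gbp8, with a single count in Combo200, and Gbp6 against Oxali (13 counts against 0, adjusted p = 0.0502).

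Adding Oxali to the higher IFNγ dose raised the members by unequal amounts. Gbp5 rose 73.9-fold over IFN2000 (log2 difference 6.21 ± 0.15, SE), Gbp9 52.1-fold (5.70 ± 0.25), Gbp4 34.3-fold (5.10 ± 0.21) and Gbp10 32.4-fold (5.02 ± 0.30). Gbp3 rose 15.1-fold (3.92 ± 0.05), Gbp2b 10.2-fold (3.35 ± 0.28), Gbp2 9.42-fold (3.24 ± 0.05) and Gbp7 8.82-fold (3.14 ± 0.07). Gbp2, Gbp3 and Gbp7, the most abundant members with IFNγ alone, were among the 4 smallest of these 8 fitted changes. The IFN2000 level is the divisor of each ratio, so abundance with IFNγ and the size of the ratio are not independent. Gbp9 and Gbp10 had 9 and 12 counts in IFN2000 and passed the filter only through the combination groups, which selects for large ratios. Gbp8 was 18.5-fold higher (counting interval 6.05 to 92.4) and Gbp6 at least 19.4-fold higher. Without IFN2000 replicate 2 all 10 remained called, and among the 8 fitted values Gbp2b (2.84 ± 0.29) and Gbp10 (6.50 ± 0.41, from 2 counts in IFN2000) moved most.

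At 200 pg the additions of Oxali were larger for the 3 members that could be fitted in both groups. Gbp3 rose 39.4-fold over IFN200 (log2 difference 5.30 ± 0.10, SE), Gbp2 21.7-fold (4.44 ± 0.10) and Gbp7 15.02-fold (3.91 ± 0.11). Gbp5 stood at 291 counts in Combo200 against 1 in IFN200 (272-fold, counting interval 48.5 to 10793). Combo200 also exceeded IFNγ alone at 10 times its dose: 9 of 10 members were higher in Combo200 than in IFN2000 (72.2% of all genes called, 38.3% higher), from Gbp2b at 1.83-fold (0.87 ± 0.38) and Gbp2 at 1.97-fold (0.98 ± 0.06) to Gbp5 at 9.03-fold (3.17 ± 0.22), with Gbp6 at least 4.06-fold higher. The upper end rests on IFN2000 replicate 2: Gbp10, at 7.44-fold (2.90 on the log2 scale), moved to 4.38 ± 0.58 without that library, above Gbp5 at 3.23 ± 0.30, with 2 counts left in IFN2000. The weakest of these calls, Gbp2b (adjusted p = 0.0446), was lost in 9 of the 12 fits that leave out 1 library, among them the fit without IFN2000 replicate 2 (0.36 ± 0.40), and under DESeq2. Gbp8 had 1 count against 3.

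The combinations were then compared with the sum of the single effects. On the CPM scale both Combo2000 libraries lay above the sum of the single effects for 10 of 10 members, and both Combo200 libraries for 9 of 10 (not Gbp8), as a description without a test. The share of all genes above their sums was not computed, so these numbers have no background beside them. Over Ctrl, Oxali and IFN2000, Gbp6 and Gbp8 had 0 and 3 counts, and both passed the filter only through Combo2000. At 2000 pg the mean of the combination was 6.87 times that sum for Gbp7, 8.81 times for Gbp2, 12.7 times for Gbp3 and 57.8 times for Gbp5. At 200 pg it was 6.68 times for Gbp7, 12.2 times for Gbp2 and 13.9 times for Gbp3. Gbp9 and Gbp4 were at 3.89 and 4.40 times the sum at 200 pg and at 18.5 and 15.5 times at 2000 pg. The sums of Gbp5, Gbp9 and Gbp4 rest on few counts: 38, 27 and 41 over Ctrl, Oxali and IFN2000. At 200 pg those of Gbp9 and Gbp4 rest on 19 and 25 counts. Those of Gbp5, Gbp2b, Gbp10 and Gbp6 at 200 pg rest on 9, 5, 2 and 0 counts. A few counts in the combination are enough to exceed such sums, so for these members lying above the sum says little. Gbp2b, Gbp9 and Gbp10 also passed the filter only through the combination groups.

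On the log2 scale, where the interaction asks whether the combination exceeded the product of the single fold changes, 3 members had counts above the floor in all 4 groups of each test. At 200 pg, Gbp2 (2.74 ± 0.34, SE, adjusted p = 0.000131) and Gbp3 (2.47 ± 0.44, adjusted p = 0.00716) were called, against 0.698% of all genes in either direction and 0.562% higher, and Gbp7 was not (1.60 ± 0.38, adjusted p = 0.0558), although it was called under DESeq2 and without the filter on low counts. At 2000 pg, Gbp2 was called (1.53 ± 0.30, adjusted p = 0.00827), against 2.72% of all genes and 2.12% higher. Gbp3 (1.09 ± 0.38, adjusted p = 0.207) and Gbp7 (0.83 ± 0.34, adjusted p = 0.220) were not. The calls changed with the Ctrl libraries, where these genes had 5 to 18 counts: Gbp3 was not called at 200 pg without Ctrl replicate 1 (adjusted p = 0.0525) or Ctrl replicate 2 (2.16, adjusted p = 0.456), Gbp2 was not called at 2000 pg without Ctrl replicate 1 (1.46, adjusted p = 0.176) or Ctrl replicate 2 (1.59, adjusted p = 0.0933), and Gbp7 at 2000 pg was at -0.043 without Ctrl replicate 2. Gbp2 at 200 pg was called in all 12 fits that leave out 1 library. For the other 7 members the fitted interactions start from groups at or under the floor and are not reported.

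For Gbp2, Gbp3 and Gbp7 the fold change from 200 to 2000 pg IFNγ was smaller in the presence of Oxali, on the log2 scale. The larger change with Oxali at 200 than at 2000 pg, given above, is the same contrast read the other way, so they are 1 result. On the CPM scale the step was larger with the drug: the mean of Gbp2 went from 60.2 to 289 CPM, against 2.77 to 30.7 CPM without it. From Combo200 to Combo2000 all 10 members were called higher, against 1.37% of all genes in either direction and 1.21% higher. Gbp6 and Gbp8 passed the filter only through Combo2000, so their calls are no support for a rise. Gbp5 rose 8.19-fold (log2 difference 3.03 ± 0.09, SE), Gbp9 6.83-fold (2.77 ± 0.16), Gbp4 5.84-fold (2.55 ± 0.15), Gbp2b 5.56-fold (2.47 ± 0.24), Gbp2 4.79-fold (2.26 ± 0.05), Gbp6 4.72-fold (2.24 ± 0.39), Gbp10 4.35-fold (2.12 ± 0.20), Gbp3 3.67-fold (1.88 ± 0.04) and Gbp7 2.58-fold (1.37 ± 0.06). Gbp8 had 61 counts against 1. Gbp6 was not called when either library of Combo200 or of Combo2000 was left out. The difference between this step and the step without Oxali was called for 3 members, against 6.59% of all genes and 3.19% lower: Gbp3 (-1.38 ± 0.16, adjusted p = 4.78e-05), Gbp2 (-1.20 ± 0.14, adjusted p = 4.78e-05) and Gbp7 (-0.77 ± 0.17, adjusted p = 0.0126). Gbp7 was not called without IFN200 replicate 1 (-0.75) or with a replicate block, and in the fit without IFN200 replicate 1 the values for Gbp3 and Gbp2 were -1.52 and -1.51.

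**Figure D3:**
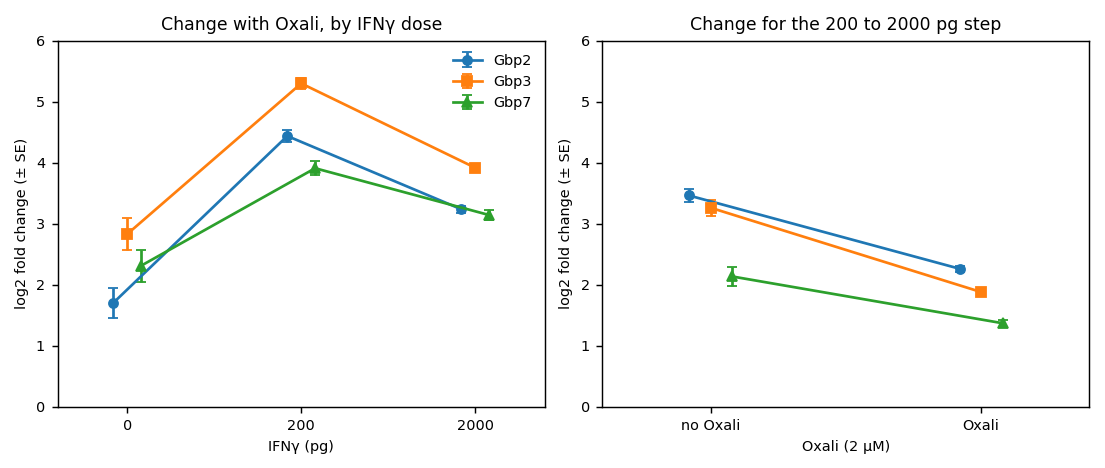
Fitted log2 fold changes ± SE for Gbp2, Gbp3 and Gbp7, the members above the floor in all groups. The SE understates the counting error of large changes from few counts. Left, the change with Oxali at 0, 200 and 2000 pg IFNγ, which was highest at 200 pg for each gene (Gbp3 at 2.83, 5.30 and 3.92); right, the change for the step from 200 to 2000 pg, which was smaller with Oxali than without (Gbp2 at 3.46 without and 2.26 with).

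Per length of transcript, the summed GBP signal stood at 0.596 and 0.656, 2.04 and 1.61, and 17.7 and 17.5 CPM per kb over the steps of IFNγ without Oxali. With Oxali it stood at 2.84 and 2.63, 44.5 and 46.8, and 195 and 197 CPM per kb. Most of it came from Gbp2, Gbp3 and Gbp7 in every group. The share of Gbp2 was 69.2% ± 0.694 (SD, n = 2) in IFN2000 and 45.1% ± 2.67 in Oxali, while that of Gbp3 was 19.4% ± 0.641 and 27.9% ± 2.95. The mean shares of Gbp4 and Gbp9 were higher in Oxali: Gbp9 stood at 2.81% ± 0.0108 and Gbp4 at 2.49% ± 0.448, against 0.215% ± 0.0261 and 0.297% ± 0.0361 in IFN2000. These shares rest on few counts: 9 and 8 for Gbp9 and 13 and 9 for Gbp4 in Oxali. In IFN2000 the counts were 5 and 4, and 10 and 8. The SD of 2 libraries does not show the counting error of such values. The make-up of Combo2000 lay between these for Gbp2 (58.6% ± 0.486) and Gbp3 (26.4% ± 0.00998). It did not for Gbp7, at 6.87% ± 0.130 in Combo2000 against 8.66% ± 0.124 in IFN2000 and 19.8% ± 1.02 in Oxali. Gbp5 made up 3.75% ± 0.334 of the Combo2000 signal, its highest share. These shares are given as a description without a test.

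**Figure D4:**
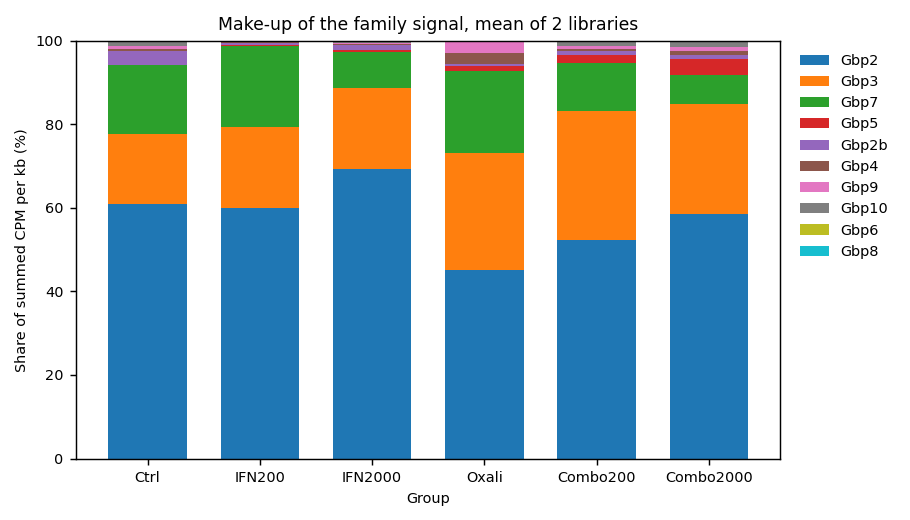
Share of each member in the summed CPM per kb, as stacked bars that start at 0 and reach 100%, mean of 2 libraries per group. Gbp2 is the widest band in each group and narrowest in Oxali (45.1%), where Gbp9 (2.81%) and Gbp4 (2.49%) have their widest bands.

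The genes around the clusters and in the same pathway give the setting of these changes. Pdlim5 and Kyat3, which flank the chromosome 3 cluster, changed by 0.55 ± 0.04 and -1.59 ± 0.08 (log2, SE) from Ctrl to Combo2000, and Lrrc8b, on one side of the chromosome 5 cluster, by -0.35 ± 0.06. Only Pdlim5 of the 3 was called in IFN2000 (-0.21 ± 0.04). Of 31 genes listed for the signal to GBP promoters, the partner GTPases, the conjugation machinery that loads them and the inflammasome, 27 were tested. With IFNγ alone, 3 were called higher than in Ctrl and 0 lower at 200 pg, and 15 higher and 1 lower at 2000 pg, against 0.114% and 16.9% of all genes called in either direction. With Oxali the numbers were 17 higher and 4 lower without IFNγ, 24 and 2 at 200 pg, and 24 and 3 at 2000 pg, against 67.6%, 68.7% and 69.2% of all genes called in either direction (34.8%, 35.6% and 35.7% higher). The counts with Oxali are to be read against that background. Gbp11 and Casp4, both on the list, passed the filter on low counts only through Combo2000, and their calls there are no support for a rise. The median log2 difference from Ctrl was 1.06 in IFN2000, 0.76 in Oxali and 2.77 in Combo2000, against 0.00, 0.02 and 0.02 over all genes.

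Within the signaling group, all 10 genes were called higher in Combo2000, against 35.7% of all genes. Jak1, a receptor-bound kinase, changed least (log2 difference 0.26 ± 0.04, SE).

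All 9 GTPase partners, Gbp11 among them, were called higher in Combo2000, against 35.7% of all genes. Gbp11 passed the filter on low counts only through Combo2000, so its rise there was partly built into its being tested. Tgtp2, an immunity-related GTPase, went from 0 counts in both Ctrl libraries to 496 and 427 in Combo2000 (at least 231-fold). It had 97 and 100 counts in IFN2000 and 3 and 4 in Oxali. Irgm1, a regulator of that family, changed least in its group (log2 difference 2.04 ± 0.04, SE), and was lower than Ctrl with Oxali alone (-0.13 ± 0.05, adjusted p = 0.0254). Of the 9 partners, 4 were called higher and 2 lower with Oxali alone, a number near the 67.6% of all genes called there. Gbp11, annotated as a polymorphic pseudogene of the family and not among the 10 members, had 40 and 37 counts in Combo2000, 9 and 8 in Combo200 and at most 3 in the other libraries.

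The 6 conjugation genes moved little. In Combo2000 3 were called higher and 3 lower, where 69.2% of all genes were called, from Atg3 (0.28 ± 0.05, SE) to Atg16l1 (-0.33 ± 0.05). Of the 6 inflammasome genes only Casp4 and Gsdmd were tested. Casp4 passed the filter on low counts only through Combo2000, so a rise there was partly built into its being tested. Casp4, which senses cytosolic lipopolysaccharide, had 32 counts in Combo2000 and 0 in Ctrl (at least 8.01-fold), and Gsdmd, the pore-forming protein of pyroptosis, was higher in Combo2000 (2.20 ± 0.19) and in Oxali alone (1.32 ± 0.22).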

How the data were processed

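Poly(A) RNA of 12 Myc-CaP libraries was sequenced with a stranded kit. The deposited values are raw read counts per gene. According to the methods and the submitters' processing notes, the authors aligned reads to GRCm38 with STAR 2.7.3a and counted them with featureCounts on a GENCODE annotation. The notes also name RSEM 1.3.0 without its role. How strand and multi-mapping reads were handled is not given in the sources used here.

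Counts were used as deposited, with groups from the titles. Genes were filtered with filterByExpr (minimum count 10, minimum total 15), which left 13177 of 55216 genes, of which 28300 had no count. One edgeR 4.0.16 quasi-likelihood model (R 4.3.3, TMM factors, a mean per group, no covariate) was fitted to all 12 libraries. It gave 17 contrasts, each adjusted by Benjamini-Hochberg over all genes tested, with called meaning an adjusted p under 0.05. SE is the log2 fold change divided by the root of F. For a large change from a group with few counts this value is smaller than the counting error of that group. CPM are TMM-scaled and were divided by exon length for comparisons between genes. Where a reference group had 0 counts the fold is a lower bound against 3 counts over the group. With 1 to 3 counts it is a ratio with a 95% exact counting interval. Intervals and floors cover counting error only. Comparisons share control libraries and are given side by side. The test was checked on simulated counts.

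The members and lists were chosen with earlier results of these data known. All 10 members are named whatever their result. From the pathway list of 31 genes the one with the largest and the one with the smallest Combo2000 change in each of its 4 groups are named, with the genes next to each cluster, Ifng and the 5 genes most like the members. Some genes that this rule or the marker lists would name are not reported here. Alternatives were DESeq2 1.42.0, RLE and upper-quartile factors, no filter, only the groups compared, a replicate block, length and GC offsets, both together, and each library left out in turn. Positions and lengths are from GENCODE M21, a later release than the one counted, and promoter windows from RefSeq GRCm38.p6. Protein sequences and the chromosome 5 promoters were not used here.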

Additional observations from a re-analysis of the deposited data

Results flagged for a closer look

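The effect of one agent differed with the other for 3 members, each by the test of the difference itself (edgeR quasi-likelihood test, n = 2 libraries per group). At 200 pg the combination exceeded the product of the single fold changes for Gbp2 by 2.74 on the log2 scale and for Gbp3 by 2.47. Of all genes tested, 0.698% were called there. At 2000 pg the combination did so for Gbp2 by 1.53, where 2.72% of all genes were called. The log2 change from 200 to 2000 pg differed with Oxali by -1.20 for Gbp2, by -1.38 for Gbp3 and by -0.77 for Gbp7. All 3 were in the direction of a smaller fold change with the drug, where 6.59% of all genes were called. This last contrast is the interaction at 2000 pg minus that at 200 pg, so these are not independent results. Gbp7 was called only in the dose step. Several of these calls were fragile. Leaving out either Ctrl library removed the call of Gbp3 at 200 pg and that of Gbp2 at 2000 pg. The dose step call of Gbp7 was lost without IFN200 replicate 1 and with a replicate block.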

How the results depend on the processing

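Of the counts of called members under other settings, 327 of 340 stayed within 1.5 times the reported value. No scaling moved the median of all genes by over 0.1 on the log2 scale. With DESeq2, IFN2000 against IFN200 gave 4 members instead of 8, and with only the groups compared it gave 4, Oxali against Ctrl gave 3 instead of 6 and Oxali against IFN200 gave 3 instead of 5, and in each of these fits the lost members failed the filter or received no adjusted p, so they were not tested there. Among members that were tested there, DESeq2 also lost Gbp3 for IFN200 against Ctrl, Gbp4 for IFN2000 against Ctrl, Gbp6 for Combo2000 against Combo200, Gbp2b for Combo200 against IFN2000 and Gbp5 for Oxali against IFN200. With a replicate block IFN200 against Ctrl gave 1 instead of 3; elsewhere the block moved no count by over 1.5 times. The replicate numbers are not known to pair libraries (1 of 6 group pairs had a correlation of deviations over 0.1, range -0.24 to 0.11). Leaving out 1 library, with a lone library assumed to vary like the others, gave 0 to 3 members for IFN200 against Ctrl, 5 to 8 for IFN2000 against IFN200, 1 to 3 for the interaction at 200 pg and 0 to 1 for that at 2000 pg. Sign changed for Gbp2, Oxali against IFN200 (0.16, range -0.087 to 0.47 over the libraries left out, lowest without IFN200 replicate 2), and for Gbp7, interaction at 2000 pg (0.83, range -0.043 to 1.32, lowest without Ctrl replicate 2). Over the 76 member fold changes, the other settings left 592 calls as reported, gained 3 and lost 11, and leaving out libraries left 874, gained 3, lost 33 and changed 2 signs. The number of genes called in all was most sensitive for IFN200 against Ctrl (15, and 11 to 102 over these settings), the interactions at 200 pg (92, and 48 to 262) and 2000 pg (359, and 217 to 785) and the dose step interaction (868, and 236 to 1320). A fit with the replicate block called 1073 genes instead of 2221 for IFN2000 against Ctrl, 142 instead of 241 for Combo200 against Oxali (372 with no filter) and 331 instead of 572 for Combo2000 against Oxali, and with length and GC offsets as well 1579 instead of 2942 for IFN2000 against IFN200. The cause was not tested. Depth limits Gbp5, Gbp2b and the chromosome 5 members without the combination, where 1 count is a large part of each value.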

Other observations

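The genes whose levels followed the 10 members most closely over the 12 libraries were Plaat3 (r = 0.992), Parp9 (r = 0.991), Mlkl (r = 0.986), Parp14 (r = 0.984) and C1ra (r = 0.983), out of 10472 genes with a mean of at least 1 on the log2 CPM scale. The measure is Pearson's r between log2 CPM and the mean standardized profile of the members, given as a description, since the 12 libraries share 6 treatments. Parp9 and Parp14 are members of the ADP-ribosyltransferase family and are induced by interferons, and Mlkl is the executor of necroptosis. Their ranges were much narrower than those of the members: Parp9 went from 32.3 ± 1.08 CPM (SD, n = 2) in Ctrl to 100.3 ± 1.57 in Combo2000 and Mlkl from 30.1 ± 0.377 to 60.4 ± 0.860. Parp14 stood at 16.3 ± 1.15 in Ctrl, 29.3 ± 2.28 in IFN2000, 24.2 ± 1.52 in Oxali and 99.6 ± 3.63 in Combo2000. The ranking depends on the prior count added before the log: with 0.5 in place of 2, 2 of these 5 genes stayed among the first 5, and Ifitm3, Tapbpl and Psmb10 entered.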
